A study of Mus musculus with 2 samples.

Results

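The carnitine shuttle and mitochondrial beta-oxidation were described by 10 genes, Cpt1a, Cpt2, Crot, Crat, Slc25a20, Acadm, Acadl, Acadvl, Hadha and Hadhb, in single-cell RNA-seq of mouse liver. They were chosen by symbol from the 32285 genes in the count tables, and all 10 were found in both libraries. The WT library came from wild-type littermates and the HKO library from mice with loxP-flanked miR-33 alleles and Cre under the albumin promoter, which removes miR-33 from hepatocytes. All mice were males on the CD-HFD, a choline-deficient, high-fat diet, for 6 months from 8 weeks of age. Each genotype was 1 pool of 3 livers, in which isolated hepatocytes and sorted non-parenchymal cells were mixed in equal numbers and loaded as 1 library. With 1 library per genotype no test was possible, and every interval below is an exact 95% interval for counting error only, not for differences between mice, pools or preparations.

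Long-chain fatty acids enter mitochondria as carnitine esters. Cpt1a, the liver carnitine palmitoyltransferase of the outer membrane, forms the ester and is the controlled step of the pathway, Slc25a20 carries it across the inner membrane, and Cpt2 returns it to coenzyme A. The acyl-CoA dehydrogenases and the trifunctional protein then shorten the chain in repeated rounds. Crot and Crat transfer medium and short acyl groups to carnitine, which lets products of peroxisomes and mitochondria move between compartments. The microRNA miR-33, encoded within the sterol regulator gene Srebf2, is known to bind the transcripts of Cpt1a and Crot.

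The seed of a microRNA, its bases 2 to 8, pairs with sites in the 3'UTR of a transcript. The mature miR-33-5p (RefSeq, GRCm38.p6, chr15:82198127-82198147, plus strand) is shown first, with the seed in capitals. The sites in the longest annotated 3'UTR of each member (GENCODE M21, GRCm38) follow with the letters of the site in capitals, because they mark which members can be compared with the seed. An 8mer is CAATGCAA, a 7mer-m8 is CAATGCA and a 7mer-A1 is AATGCAA. Only the strand of the transcript was searched, and where these overlapped the longest was counted once.
mmu-miR-33-5p: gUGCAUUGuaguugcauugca
Cpt1a 8mer, chr19:3385475-3385504, plus strand: tgagcagttacCAATGCAAttttttactcc
Crot 8mer, chr5:8966674-8966703, minus strand: tgttgcaaccaCAATGCAAagtcagatata
Crat 7mer-m8, chr2:30400840-30400868, minus strand: actgaggcagaCAATGCAtgtggagttgg
Hadhb 7mer-m8, chr5:30184138-30184166, plus strand: caatgccatttCAATGCActaccaagtga
A match was present in 4 of 10 members, against 3111 of 20742 genes with a 3'UTR, or 15%. Among genes whose 3'UTR was within 20% of the same length, a match was present in 20.0% for Cpt1a, 9.02% for Crot, 23.0% for Crat and 5.47% for Hadhb. The known targets Cpt1a and Crot were the members with the 8mer, and the other 6 members had none of these letters in the 3'UTR searched.

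The WT library held 130451427 UMIs (counted RNA molecules) in 30078 barcodes and the HKO library 52563185 in 20000. Most barcodes lay at the commonest depth of their library and held hepatocyte transcripts, and they are called barcodes of free RNA depth. Deeper barcodes without markers of other cells are called hepatocyte-like, 1836 in WT with a median of 20538 UMIs and 3547 in HKO with a median of 4262. Alb, the plasma albumin gene, was detected in 100% of them in both libraries. The depth minimum differed, at 5140.79 UMIs in WT and 1625.66 in HKO, so the ratio of each member is also given for at least 5000 UMIs in both, which kept 1836 WT and 1588 HKO barcodes. Each minimum was 2 times the commonest depth. The HKO table held 20000 barcodes, and its free RNA depth barcodes began at 770 UMIs, close to the commonest depth of 813, so the HKO minimum may depend on a cut made before deposit, which was not tested. The 6 hepatocyte markers summed to 69934 counts per 1000000 UMIs of the class (CPM) in WT and 55583 in HKO and each was lower in HKO. The 10 lists of other cell types summed to between 1.29 and 157 CPM in WT and between 1.63 and 104 CPM in HKO, and that of B and plasma cells was at 57.1 and 82.2 CPM with 8 of 9 markers higher in HKO. The part of these differences in the results was not tested. Mir33 was not listed among the genes, and its host Srebf2 was at 24.7 CPM in WT and 19.5 in HKO, which does not show whether miR-33 was deleted.

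Cpt1a was the member with the largest difference between the libraries. In hepatocyte-like barcodes it had 10626 UMIs in WT, or 224 CPM (220.0 to 229), and 7791 in HKO, or 309 CPM (302 to 316). The HKO over WT ratio was 1.38 (1.34 to 1.42), and the intervals of the libraries did not overlap. This ratio was above that of 95.4% of the 7077 genes with a mean of at least 10 CPM. With at least 5000 UMIs in both libraries it was 1.45 (1.40 to 1.49). After every such barcode was thinned to 5000 UMIs, 65.1% of WT barcodes (62.9 to 67.3) and 76.0% of HKO barcodes (73.8 to 78.1) held a Cpt1a UMI. Before thinning these shares were 91.4% and 90.7%, so this share told the libraries apart only at equal depth.

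**Figure D1:**
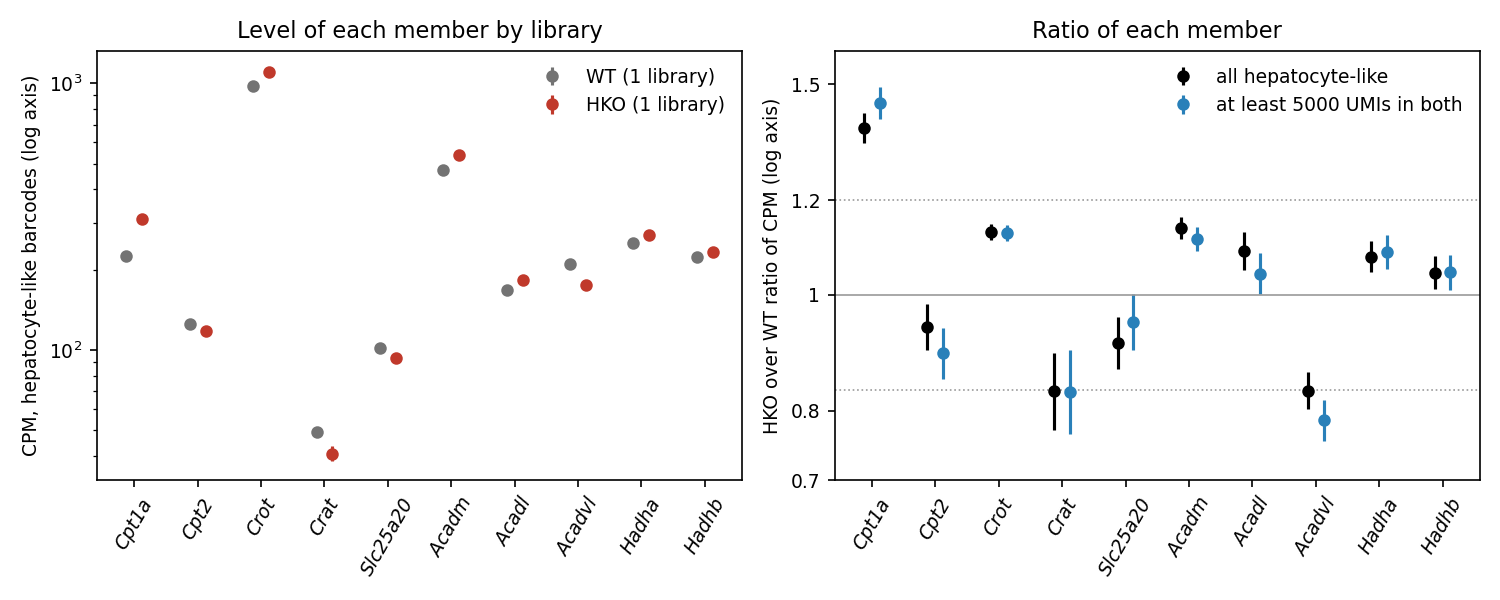
CPM of the 10 members in hepatocyte-like barcodes of the WT and HKO libraries (left, log axis) and the HKO over WT ratio of CPM (right, log axis), for all hepatocyte-like barcodes and for at least 5000 UMIs in both. Points are 1 library per genotype, bars are 95% counting intervals, and dotted lines mark 1.2-fold; Cpt1a alone lies above the upper line, and Crat and Acadvl lie at or below the lower line.

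The higher Cpt1a level was found in each depth bin and cluster with at least 50 barcodes of both libraries. At 5000 to 10000 UMIs it was 213 CPM in WT and 328 in HKO, giving a ratio of 1.54 (1.40 to 1.68). This ratio stood at 1.42 (1.33 to 1.51) at 10000 to 20000 UMIs and 1.34 (1.27 to 1.42) at 20000 to 40000. Above 40000 UMIs HKO had only 6 barcodes, with 58 Cpt1a UMIs, and the ratio of 0.892 (0.676 to 1.16) had an interval on both sides of 1.

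The libraries also filled the clusters of the hepatocyte-like class differently. Cluster 7, led by A2ml1, Rab26os and Slc10a1, held 34.6% of the WT class and 32.5% of the HKO class. Cluster 10, led by Gm15622 and the non-coding RNA Neat1, held 33.7% and 18.8%. Cluster 6, led by Mt1, held 4.90% and 25.6%, and cluster 14 held 13.7% and 0.0846%, so the classes of the libraries were of unlike composition. Cluster 14 lay almost wholly in WT, and ratios that rested on it are also given without it, a comparison chosen after the data were seen. Within cluster 7 Cpt1a was at 230 CPM in WT and 328 in HKO, giving a ratio of 1.42 (1.37 to 1.48). Within cluster 10 it was at 261 and 416 CPM, giving a ratio of 1.59 (1.51 to 1.68). The Cpt1a ratio stood at 1.93 (1.47 to 2.57) in cluster 6 and 1.36 (1.08 to 1.71) in cluster 8, which was led by mitochondrially encoded genes. Cpt1a was thus higher in HKO in 4 of 4 clusters, each with an interval above 1, and without cluster 14 its ratio over the class was 1.31 (1.27 to 1.35). In cluster 7 its ratio was above that of 97.7% of genes and in cluster 10 above that of 96.7%, but without cluster 14 it was above that of 90.2%.

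Crot, the peroxisomal carnitine octanoyltransferase and the other member with an 8mer, did not show this pattern. Over all hepatocyte-like barcodes it was at 979 CPM (970 to 988) in WT and 1106 CPM (1093 to 1119) in HKO, giving a ratio of 1.13 (1.11 to 1.15). With at least 5000 UMIs in both the ratio was also 1.13 (1.11 to 1.15). It was 0.965 (0.924 to 1.01) at 5000 to 10000 UMIs, 1.17 (1.14 to 1.21) at 10000 to 20000 and 1.12 (1.09 to 1.16) at 20000 to 40000. Within cluster 7 Crot was at 1224 CPM in WT and 1208 in HKO, giving a ratio of 0.987 (0.968 to 1.01), and within cluster 10 at 721 and 653 CPM, giving a ratio of 0.905 (0.870 to 0.942). The Crot ratio stood at 1.11 (1.05 to 1.18) in cluster 6 and 1.13 (0.981 to 1.31) in cluster 8. The direction of the pooled Crot ratio therefore did not hold within the clusters that had the most barcodes of both libraries. Thinned to 5000 UMIs, 96.0% of WT and 96.9% of HKO barcodes held a Crot UMI, with intervals that overlapped (95 to 96.8 and 95.9 to 97.7).

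Crat, the carnitine acetyltransferase, was the member with the fewest UMIs and was lower in HKO. It had 2334 UMIs in WT, or 49.3 CPM (47.3 to 51.3), and 1031 in HKO, or 40.9 CPM (38.5 to 43.5), giving a ratio of 0.831 (0.772 to 0.895), and of 0.830 (0.765 to 0.899) with at least 5000 UMIs in both. The Crat ratio stood at 0.796 (0.718 to 0.883) in cluster 7 and 0.783 (0.627 to 0.970) in cluster 10. It was 1.24 (0.895 to 1.74) in cluster 6 and 1.16 (0.570 to 2.31) in cluster 8, with intervals on both sides of 1. Without cluster 14 the Crat ratio over the class was 0.955 (0.882 to 1.03). At 10000 to 20000 UMIs it was 1.11 (0.952 to 1.30), so the lower level was not seen at every depth.

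The other steps of the shuttle differed less over the whole class. Cpt2, the inner membrane transferase, was at 125 CPM (122 to 128) in WT and 118 CPM (114 to 122) in HKO, giving a ratio of 0.941 (0.900 to 0.983), and of 0.894 (0.851 to 0.939) with at least 5000 UMIs in both. None of the 4 clusters gave Cpt2 an interval clear of 1, and the ratios ranged from 0.880 to 1.10. Over depth it stood at 0.745 (0.658 to 0.843) at 5000 to 10000 UMIs, 1.08 (0.982 to 1.19) at 10000 to 20000 and 0.861 (0.780 to 0.948) at 20000 to 40000. Without cluster 14 the Cpt2 ratio lay on the opposite side of 1, at 1.08 (1.03 to 1.13). Slc25a20, the carnitine/acylcarnitine translocase, was at 102 CPM (99.2 to 105) in WT and 93.1 CPM (89.4 to 96.9) in HKO, giving a ratio of 0.912 (0.868 to 0.958). With at least 5000 UMIs in both the interval included 1, at 0.949 (0.900 to 1.00), while it was below 1 at 5000 to 10000 UMIs, at 0.824 (0.720 to 0.943), and at 20000 to 40000, at 0.818 (0.736 to 0.907). At 10000 to 20000 UMIs it was 1.00 (0.908 to 1.11). The Slc25a20 ratio stood at 0.925 (0.864 to 0.989) in cluster 7, 1.06 (0.95 to 1.17) in cluster 10 and 0.728 (0.566 to 0.944) in cluster 6. Neither was higher in HKO over all hepatocyte-like barcodes, but for Cpt2 this rested on cluster 14.

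The acyl-CoA dehydrogenases, which start each round of oxidation for very-long, long and medium chains, did not move together. Acadvl, for very-long chains, was at 211 CPM (207 to 215) in WT and 175 CPM (170 to 180) in HKO, giving a ratio of 0.831 (0.802 to 0.861), and of 0.786 (0.755 to 0.818) with at least 5000 UMIs in both. Its ratio stood at 0.990 (0.941 to 1.04) in cluster 7, 0.786 (0.714 to 0.863) in cluster 10, and from 0.779 to 0.970 over the depth bins. Acadvl was below 1 in 4 of 4 clusters and 3 of 3 depth bins, but its interval excluded 1 only in cluster 10 and in 2 of the depth bins. It included 1 in clusters 6, 7 and 8 and at 10000 to 20000 UMIs, where the ratio was 0.970 (0.898 to 1.05). Without cluster 14 the Acadvl ratio over the class was 1.03 (0.994 to 1.07), so its lower level in HKO rested on a cluster found almost only in WT.

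Acadl, for long chains, was at 168 CPM (164 to 172) in WT and 183 CPM (178 to 188) in HKO, giving a ratio of 1.09 (1.05 to 1.13), but 0.888 (0.844 to 0.935) in cluster 7. Acadm, for medium chains, was at 474 CPM (468 to 480) in WT and 539 CPM (530 to 548) in HKO, giving a ratio of 1.14 (1.11 to 1.16), but 0.970 (0.943 to 0.998) in cluster 7 and 0.818 (0.765 to 0.875) in cluster 10. For both genes the pooled ratio and the ratio within cluster 7 lay on opposite sides of 1. With at least 5000 UMIs in both the ratios were 1.04 (1.00 to 1.08) for Acadl and 1.11 (1.09 to 1.14) for Acadm. At 5000 to 10000 UMIs they were 0.898 (0.809 to 0.998) and 0.889 (0.837 to 0.944), and in the deeper bins both were above 1, from 1.15 to 1.24 for Acadl and from 1.16 to 1.23 for Acadm.

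Hadha and Hadhb encode the alpha and beta subunits of the trifunctional protein, which completes the round for long chains. Their genes lie head to head on chromosome 5 with 85 bases between them (GRCm38). Hadha was at 251 CPM (246 to 256) in WT and 270 CPM (264 to 277) in HKO, giving a ratio of 1.08 (1.05 to 1.11). Hadhb was at 223 CPM (219 to 228) in WT and 233 CPM (227 to 239) in HKO, giving a ratio of 1.04 (1.01 to 1.08). In cluster 7 the ratios were 0.961 (0.924 to 0.999) for Hadha and 1.05 (1.00 to 1.09) for Hadhb, and in cluster 10 they were 0.961 (0.881 to 1.05) and 0.852 (0.779 to 0.930). With at least 5000 UMIs in both the ratios were 1.09 (1.05 to 1.12) and 1.04 (1.01 to 1.08). Over depth Hadha was at 1.03 (0.942 to 1.13) at 5000 to 10000 UMIs, 1.2 (1.13 to 1.28) at 10000 to 20000 and 1.21 (1.14 to 1.28) at 20000 to 40000, while Hadhb ranged from 0.982 to 1.12. Thinned to 1000 UMIs, Hadha was at 1.35, so its ratio depended on how depth was treated.

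**Figure D2:**
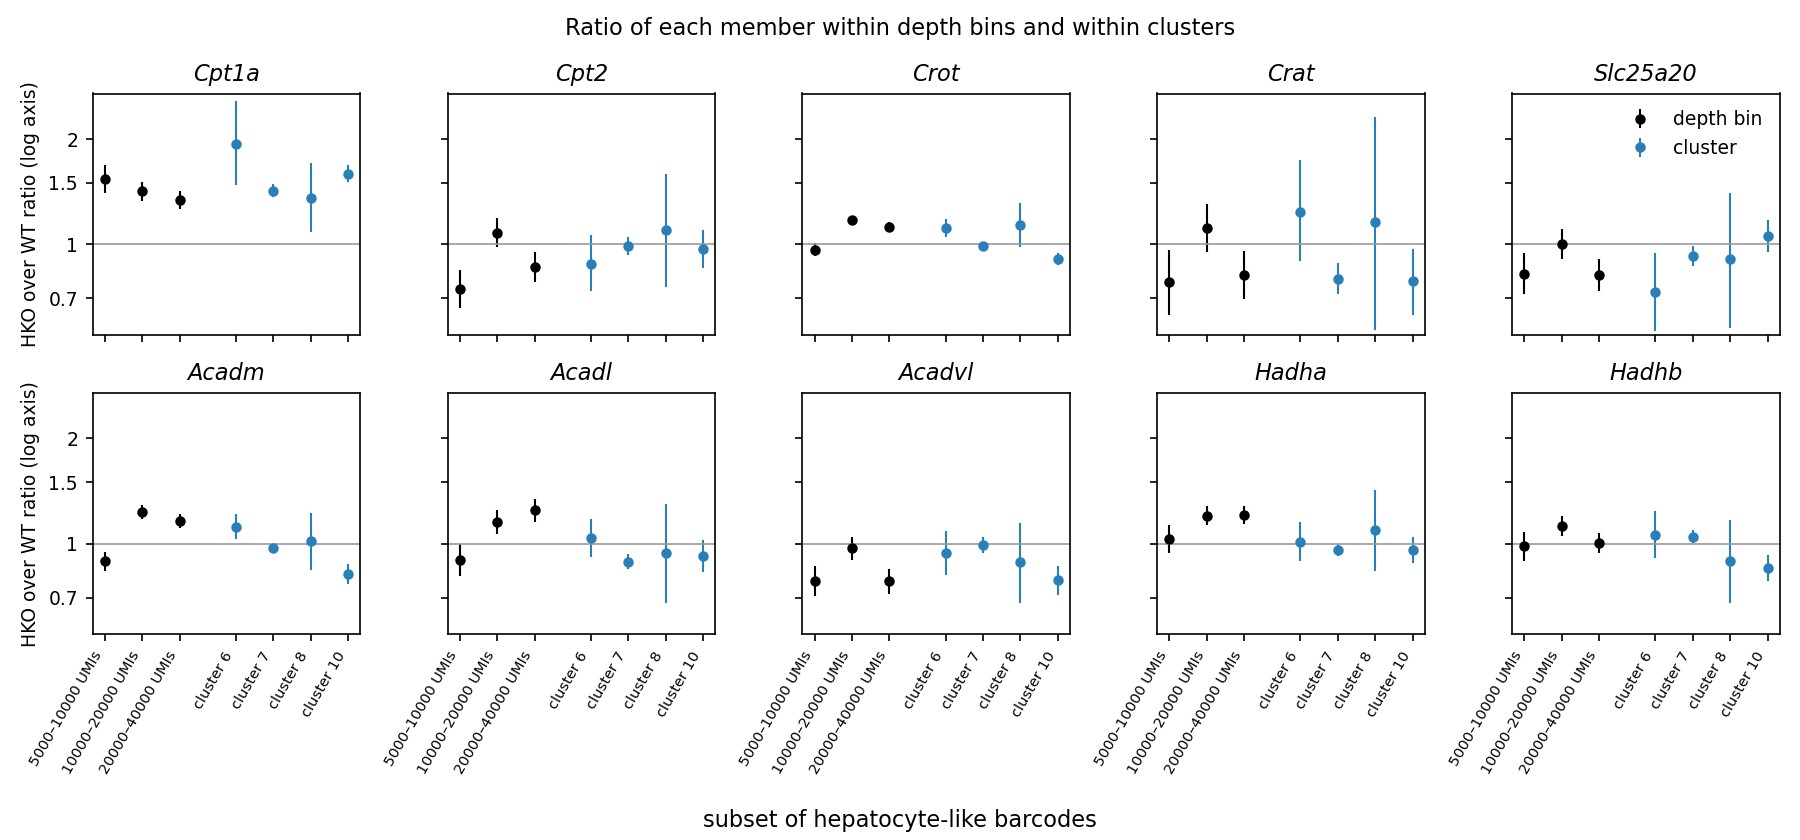
HKO over WT ratio of CPM (log axis) for each member in 3 depth bins and in the 4 clusters with at least 50 hepatocyte-like barcodes of both libraries, with 95% counting intervals. The Cpt1a ratios lie between 1.34 and 1.93, all above 1, while those of the other members lie on both sides of 1 or below it.

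Of the 10 members, 6 were higher and 4 lower in HKO. Their median log2 ratio was 0.08 against -0.02 for all 7077 genes. At least 1.2-fold, 1 member was higher, Cpt1a, against 14.0% of all genes, and 2 were lower, Crat and Acadvl, against 19.3%. Both of these were only just past 1.2-fold, and neither passed it when totals left out mitochondrially encoded genes. Without cluster 14, 8 members were higher and 2 lower, and the counts past 1.2-fold were 1 and 0, against 17.6% and 22.1% of 7070 genes. With at least 5000 UMIs in both libraries the counts were again 1 higher and 2 lower, against 14.4% and 18.6%. In cluster 7 they were 1 higher and 1 lower (Crat), against 10.9% and 17.4% of 6788 genes. In cluster 10 they were 1 higher and 3 lower (Crat, Acadvl and Acadm), against 25.0% and 22.1% of 7147 genes. The median log2 ratio of the members was -0.032 in cluster 7 and -0.13 in cluster 10, against -0.031 and 0.04 for all genes, so the members as a list were not higher in HKO within these clusters.

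Barcodes of free RNA depth, 19991 in WT and 10100 in HKO, gave a like contrast between Cpt1a and the rest. Cpt1a was at 192 CPM (188 to 195) in WT and 250 CPM (240 to 260) in HKO, giving a ratio of 1.31 (1.25 to 1.36), above that of 91.8% of genes. The other 9 members were lower, with ratios from 0.672 for Cpt2 to 0.790 for Hadha. Crot was at 1325 CPM in WT and 934 in HKO, giving a ratio of 0.705 (0.690 to 0.720), opposite to its pooled hepatocyte-like ratio. At least 1.2-fold, 1 member was higher against 12.5% of 6963 genes and 9 were lower against 45.3%. The median of all genes was also below 1 in these barcodes, at a log2 ratio of -0.22, with -0.40 for the members.

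The share of UMIs from mitochondrially encoded genes varied widely within both libraries. Barcodes with at least 5000 UMIs were split by this share into 3 ranges of equal number within each library. Its median was 1.29%, 11.9% and 30.2% in WT and 2.67%, 13.4% and 28.9% in HKO from the lowest to the highest. Cpt1a was at 205, 239 and 232 CPM in WT and at 296, 328 and 352 CPM in HKO, with ratios of 1.45 (1.37 to 1.53), 1.37 (1.31 to 1.44) and 1.52 (1.43 to 1.61). Cpt1a was higher in HKO at each mitochondrial share. The lowest share compared unlike clusters, since cluster 14 made up 252 of its 612 barcodes in WT and 2 of 530 in HKO, and none at the other shares. Without it the Cpt1a ratio at the lowest share was 1.26 (1.17 to 1.34).

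Within a library, the summed CPM of all nuclear genes is lower at a high mitochondrial share by construction. Levels along this axis were therefore compared with totals that left out the mitochondrially encoded genes. On that scale the ratio of the highest to the lowest share had an interval above 1 for 3 members, below 1 for 6 and including 1 for 1 in WT, and for 3, 5 and 2 members in HKO. Cpt1a had the highest ratio in both libraries, at 1.58 (1.5 to 1.65) in WT and 1.59 (1.49 to 1.70) in HKO. Slc25a20 stood at 1.11 (1.03 to 1.2) and 1.37 (1.22 to 1.54). Crot stood at 1.04 (1.01 to 1.06) in WT but 0.927 (0.894 to 0.962) in HKO, and Hadhb at 0.996 (0.945 to 1.05) and 1.12 (1.04 to 1.22). The dehydrogenase Acadl stood at 0.743 (0.697 to 0.792) and 0.592 (0.537 to 0.651), opposite to Cpt1a in both libraries. Without cluster 14 the WT values were 1.36 (1.28 to 1.45) for Cpt1a and 0.736 (0.682 to 0.794) for Acadl. For Crot, at 0.880 (0.854 to 0.906), Slc25a20, at 1.07 (0.976 to 1.17), and Hadhb, at 1.17 (1.10 to 1.25), the side of 1 or the call changed, and Acadvl went from 0.765 (0.725 to 0.806) to 1.26 (1.17 to 1.35). Cpt2 went from 0.739 (0.687 to 0.794) to 1.02 (0.932 to 1.12) and Crat from 0.690 (0.613 to 0.776) to 0.916 (0.789 to 1.06). The WT counts of members above and below 1 given here thus rested in part on cluster 14.

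Crot was at 968, 1178 and 722 CPM in WT and 1224, 1184 and 848 CPM in HKO over the same split. Its ratio was 1.26 (1.23 to 1.30) at the lowest share, or 1.08 (1.05 to 1.12) without cluster 14, 1.01 (0.982 to 1.03) at the middle and 1.18 (1.13 to 1.22) at the highest. Acadvl differed most at the lowest share, at 282 CPM in WT and 182 in HKO, giving a ratio of 0.647 (0.605 to 0.690), and was at 0.945 (0.887 to 1.01) in the middle. Without cluster 14 its ratio at the lowest share was 1.07 (0.985 to 1.16). Acadl went from 1.25 (1.18 to 1.33) at the lowest share to 0.900 (0.845 to 0.959) at the middle. For 6 members the ratio lay on both sides of 1 over the 3 shares.

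**Figure D3:**
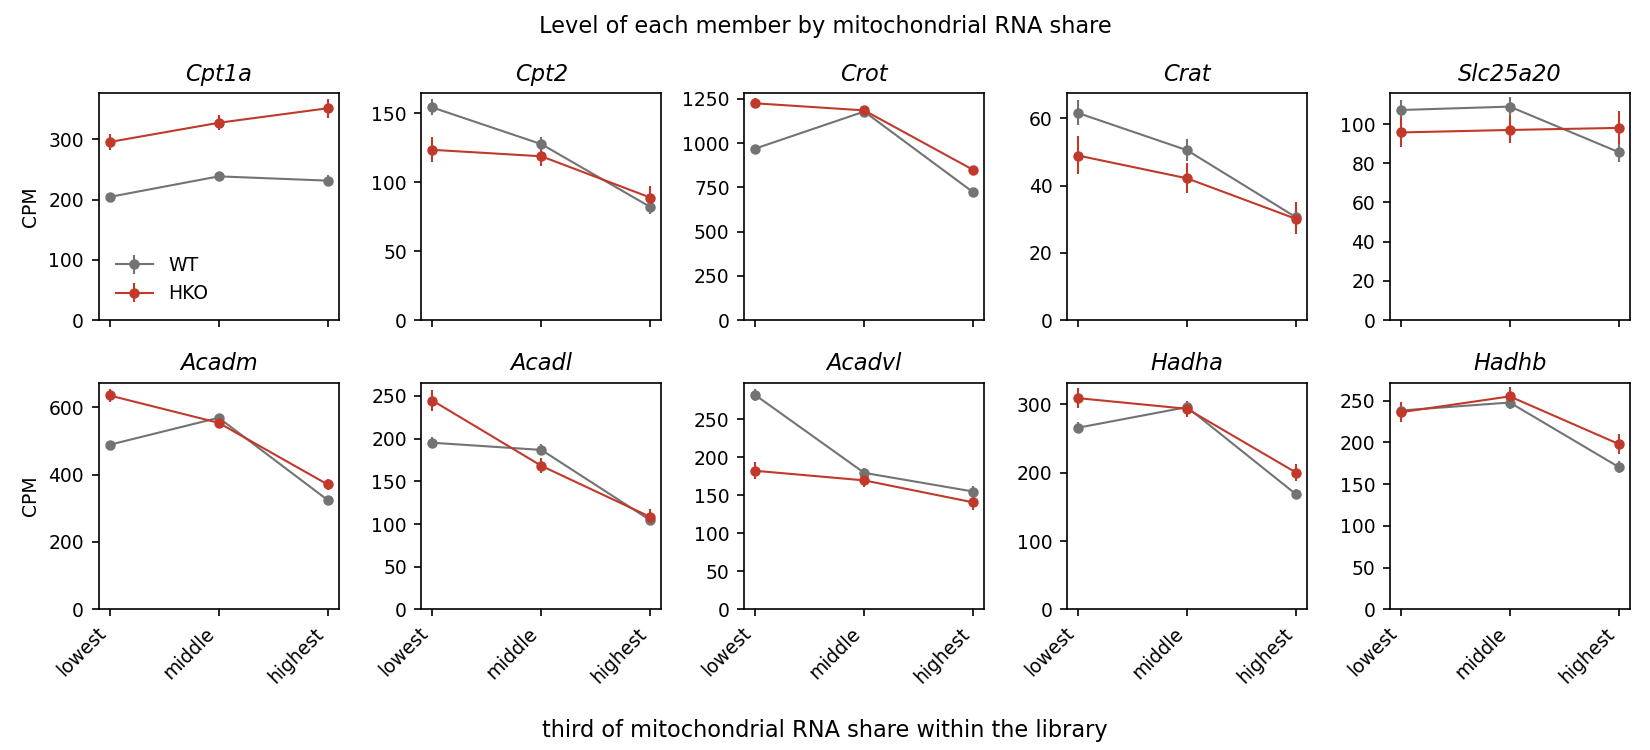
CPM of each member in barcodes with at least 5000 UMIs, split into the lowest, middle and highest share of mitochondrially encoded UMIs within each library, with 95% counting intervals. The totals include the mitochondrially encoded UMIs, so only WT and HKO at 1 share are compared, and Cpt1a in HKO lies above WT at each share.

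Hepatocytes differ along the lobule, from periportal cells near the incoming blood to pericentral cells around the central vein. Barcodes with at least 5000 UMIs were ordered by 11 pericentral and 12 periportal markers, none of them a member, and split into 3 zones of equal number within each library. Cyp2e1, a pericentral marker used in the score, went from 226 to 3855 CPM in WT and from 91.1 to 5202 CPM in HKO, which describes the split and is not a result. The split is a range and not a cell type, and 351 of 1836 WT and 365 of 1588 HKO barcodes lay within 0.1 SD of a boundary. The mitochondrial share was a median of 7.28% in the middle WT zone against 14.0% and 12% in the outer ones, and 13.8% in the middle HKO zone. The middle zones were not alike in markers either, with Cyp2e1 at 1127 CPM in WT and 445 in HKO and the summed pericentral markers at 2880 and 1677 CPM. Cluster 14 made up 177 of 612 barcodes of the middle zone in WT and 1 of 529 in HKO. The part of these differences in the results was not tested beyond leaving out cluster 14.

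Crat had the steepest zonal difference of the members. It was at 34.4 CPM (31.6 to 37.3) in the periportal and 58.1 CPM (54.3 to 62.0) in the pericentral zone of WT, giving a ratio of 1.69 (1.52 to 1.88). In HKO it was at 30.1 CPM (26.3 to 34.3) and 57.6 CPM (52.0 to 63.7), giving a ratio of 1.91 (1.62 to 2.27). Crat was higher in the pericentral zone at each mitochondrial share in both libraries, with ratios from 1.31 to 2.30, and the HKO ratio at the highest share had an interval that included 1 (0.992 to 2.06). The libraries differed most in the middle zone, where Crat was at 55.9 CPM in WT and 35.7 in HKO, giving a ratio of 0.639 (0.547 to 0.744). Without cluster 14 this ratio was 0.808 (0.679 to 0.959), and the middle zones differed in markers as given above. The WT pericentral over periportal ratio of Crat was then 1.53 (1.36 to 1.71).

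Acadl, Hadha and Hadhb were also higher in the pericentral zone of both libraries, by smaller amounts. The pericentral over periportal ratios were 1.2 (1.14 to 1.27) in WT and 1.22 (1.12 to 1.32) in HKO for Acadl, 1.2 (1.15 to 1.25) and 1.23 (1.15 to 1.31) for Hadha, and 1.23 (1.17 to 1.29) and 1.22 (1.14 to 1.31) for Hadhb. For Acadm they were 1.17 (1.13 to 1.21) and 1.17 (1.12 to 1.23). These differences did not hold at every mitochondrial share. In HKO barcodes with the highest share Acadm was lower in the pericentral zone, at 0.809 (0.728 to 0.898), and Acadl at 0.865 (0.709 to 1.05), Hadha at 0.985 (0.853 to 1.14) and Hadhb at 1.07 (0.929 to 1.23) had intervals that included 1. In WT at that share the intervals of Acadm at 1.00 (0.935 to 1.08), Acadl at 1.10 (0.970 to 1.24) and Hadhb at 1.07 (0.971 to 1.18) also included 1, and Hadha was at 1.16 (1.05 to 1.28). The shuttle genes Cpt2 and Slc25a20 were at 1.17 (1.10 to 1.25) and 1.08 (1.01 to 1.15) in WT, where Cpt2 was at 1.05 (0.982 to 1.13) without cluster 14, and in HKO at 0.977 (0.885 to 1.08) and 0.994 (0.894 to 1.11).

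Cpt1a had no consistent difference between the pericentral and periportal zones, and in WT its lowest level was in the middle zone. It was at 237, 203 and 233 CPM from periportal to pericentral in WT and at 320, 316 and 338 CPM in HKO. The pericentral over periportal ratio was 0.981 (0.937 to 1.03) in WT and 1.06 (0.996 to 1.12) in HKO, both with intervals that included 1. At the lowest mitochondrial share of WT it was 0.811 (0.739 to 0.889), and at the middle share 1.10 (1.02 to 1.18) in WT and 1.14 (1.05 to 1.24) in HKO. The HKO over WT ratio was 1.35 (1.28 to 1.42), 1.56 (1.47 to 1.65) and 1.45 (1.38 to 1.53) from periportal to pericentral. The higher HKO level of Cpt1a was therefore present in every zone.

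Crot was lower in the pericentral zone of WT, at 920 CPM against 1096, giving a ratio of 0.840 (0.821 to 0.859). In HKO it was at 1139 against 1116 CPM, giving a ratio of 1.02 (0.989 to 1.05). From the lowest to the highest mitochondrial share the WT ratio was 0.975 (0.933 to 1.02), 0.842 (0.816 to 0.869) and 0.711 (0.677 to 0.746). At the lowest share it was 1.13 (1.07 to 1.19) without cluster 14. The HKO ratio was 1.09 (1.03 to 1.16), 1.03 (0.987 to 1.08) and 0.876 (0.817 to 0.938). The zonal contrast of Crot between the libraries thus did not hold at every share. The HKO over WT ratio of Crot was 1.02 (0.992 to 1.05) in the periportal and 1.24 (1.2 to 1.27) in the pericentral zone. Acadvl was at 166 CPM in WT and 169 in HKO in the periportal zone, giving a ratio of 1.02 (0.951 to 1.09), but at 204 against 163 CPM in the pericentral zone, giving a ratio of 0.801 (0.747 to 0.858). In the middle zone Acadvl was at 263 CPM in WT and 164 in HKO, giving a ratio of 0.624 (0.581 to 0.669). Without cluster 14 the Acadvl ratio was 0.921 (0.849 to 0.999) in the middle and 0.955 (0.887 to 1.03) in the pericentral zone. With 1 library per genotype the difference between zones was not tested.

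At least 1.2-fold, 5 members (Crat, Acadl, Acadvl, Hadha and Hadhb) were higher in the pericentral zone of WT, against 24.5% of 7115 genes, and 0 were lower, against 25.0%. In HKO 4 of them, all but Acadvl, were higher, against 33.1% of 7042 genes, and 0 were lower, against 10.7%. Apart from Crat, each of these members fell below 1.2-fold under at least 1 alternative. The lowest WT ratios were 1.04 for Acadvl, without cluster 14, 1.15 for Acadl, 1.12 for Hadha and 1.10 for Hadhb, and the lowest HKO ratios 1.11 for Acadl, 1.13 for Hadha and 1.12 for Hadhb. The WT ratio of Acadvl was 1.85 (1.66 to 2.06) at the lowest mitochondrial share, or 1.31 (1.14 to 1.51) without cluster 14, but 0.960 (0.886 to 1.04) at the middle and 1.06 (0.960 to 1.18) at the highest. The median log2 ratio of the members was 0.24 in WT and 0.16 in HKO, against 0.02 and 0.13 for all genes. In HKO the members' median thus lay close to that of all genes.

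**Figure D4:**
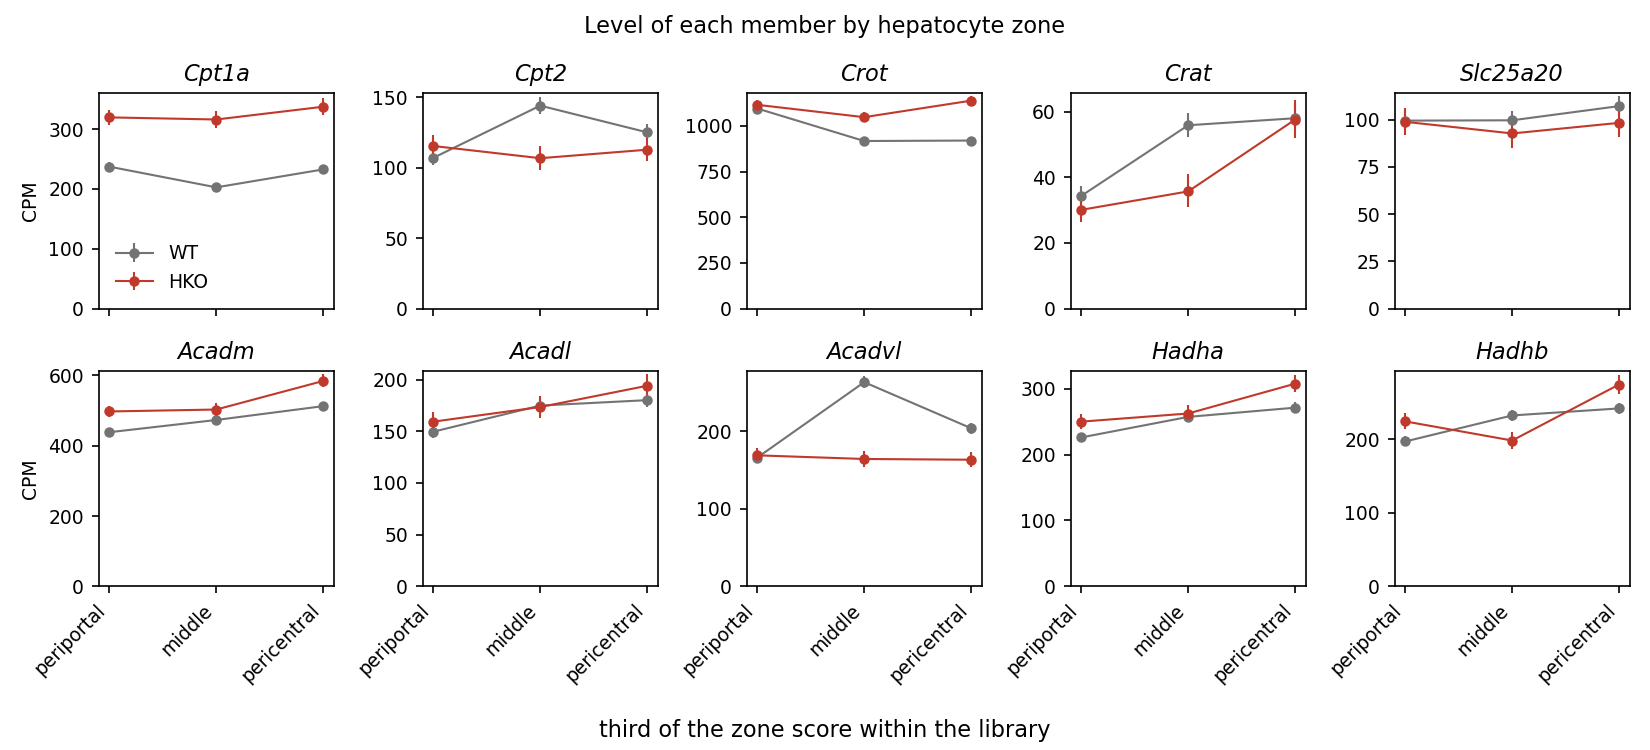
CPM of each member in the periportal, middle and pericentral range of the zone score, for hepatocyte-like barcodes with at least 5000 UMIs, with 95% counting intervals. Crat rises toward the pericentral end in both libraries, from 34.4 to 58.1 CPM in WT and from 30.1 to 57.6 CPM in HKO, and Cpt1a in HKO lies above WT in every zone.

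Hepatocyte transcripts were also present in droplets of other cells, so the members were compared with the UMIs that free RNA would give. The hepatocyte-like profile of the same library was scaled to the Alb UMIs of each class, and the profile of free RNA depth barcodes was used as a second estimate. Alb made up 1.62% of UMIs in T and NK-like barcodes of WT and 0.871% in HKO, and 2.93% and 2.08% in endothelial-like barcodes. In endothelial-like barcodes (189 in WT, 310 in HKO) the members were at 0.763 to 1.17 times the scaled profile in WT and at 0.845 to 1.13 times in HKO. Cpt1a had 408 UMIs against 400 in the scaled profile of WT and 391 against 354 in HKO. Against this profile 3 members in WT and 0 in HKO had an interval above 1. With the profile of free RNA depth barcodes these counts were 1 and 3, and Cpt1a stood at 1.14 (1.04 to 1.26) and 1.51 (1.36 to 1.66) times. In macrophage-like barcodes (184 in WT, 238 in HKO) 7 members in WT and 0 in HKO were above the hepatocyte-like profile, and 0 and 2 above that of free RNA depth. No member was above both profiles in both libraries in the endothelial-like or macrophage-like class, and how much of their levels there came from free RNA was not tested.

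Other classes with fewer barcodes held members above both profiles in both libraries. Barcodes with markers of both endothelial cells and macrophages (31 in WT, 145 in HKO), led by Cd5l and Clec4f, did so for 7 members. In them Cpt1a was at 3.09 (2.41 to 3.90) times the hepatocyte-like profile in WT and 4.16 (3.58 to 4.81) times in HKO, and Acadl at 3.42 (2.59 to 4.42) and 4.08 (3.34 to 4.93) times. Barcodes that also had stellate cell markers (22 and 83) did so for 6 members, with Cpt1a at 2.48 (1.77 to 3.38) and 4.58 (3.77 to 5.52) times. Monocyte and dendritic-like barcodes (37 and 100) did so for 4 members, with Slc25a20 at 2.42 (1.58 to 3.54) and 3.89 (2.71 to 5.41) times and Cpt1a at 1.73 (1.24 to 2.35) and 1.74 (1.30 to 2.28) times. Crot was above both profiles in both libraries in none of these 3 classes. Whether barcodes with markers of several cell types held more than 1 cell was not tested.

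T and NK-like barcodes (182 in WT, 696 in HKO) held more of some members than the scaled profile. Acadl had 186 UMIs against 82.6 in WT, or 2.25 times (1.94 to 2.60), and 230 against 101 in HKO, or 2.27 times (1.98 to 2.58). Against the free RNA depth profile Acadl was at 1.45 (1.25 to 1.68) times in WT and 2.37 (2.08 to 2.7) times in HKO. Hadhb was at 1.73 (1.49 to 1.99) and 1.68 (1.46 to 1.91) times the hepatocyte-like profile, and Acadm at 1.80 (1.63 to 1.98) and 1.35 (1.22 to 1.49) times. Against that of free RNA depth Acadm was at 1.10 (0.997 to 1.21) and 1.44 (1.30 to 1.59) times, with a WT interval that included 1. Cpt1a, with 109 and 198 UMIs, was at 0.988 (0.811 to 1.19) and 1.15 (0.998 to 1.33) times the hepatocyte-like profile. Crot was at 1.52 (1.41 to 1.64) times this profile in WT and 1.01 (0.929 to 1.09) times in HKO. Against that of free RNA depth Crot was at 1.08 (0.999 to 1.16) and 1.31 (1.21 to 1.42) times. Against the hepatocyte-like profile 7 members in WT and 5 in HKO had an interval above 1, and against that of free RNA depth 3 and 7. Acadl, Hadha and Hadhb stood above both profiles in both libraries, with Hadha at 1.58 (1.37 to 1.82) and 1.17 (1.01 to 1.36) times the hepatocyte-like one. Cpt1a was above neither profile in WT, and in HKO it was above that of free RNA depth, at 1.57 (1.36 to 1.81) times, but not above the hepatocyte-like one.

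Thinned to 1000 UMIs, which left out 1 shallower T and NK-like barcode in WT and 20 in HKO, a Cpt1a UMI was found in 9.94% of T and NK-like barcodes of WT (6.00 to 15.3) and 11.1% of HKO (8.83 to 13.7), against 19.9% and 23.9% of hepatocyte-like barcodes. A Crot UMI was found in 54.1% and 28.8% of T and NK-like barcodes and in 58.9% and 61.4% of hepatocyte-like ones. The Crot shares of the T and NK-like classes lay further apart than those of the hepatocyte-like classes, and in the opposite direction. Unthinned, the Crot shares in T and NK-like barcodes were 95.1% and 53.9%, at median depths of 5761 and 2210 UMIs.

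**Figure D5:**
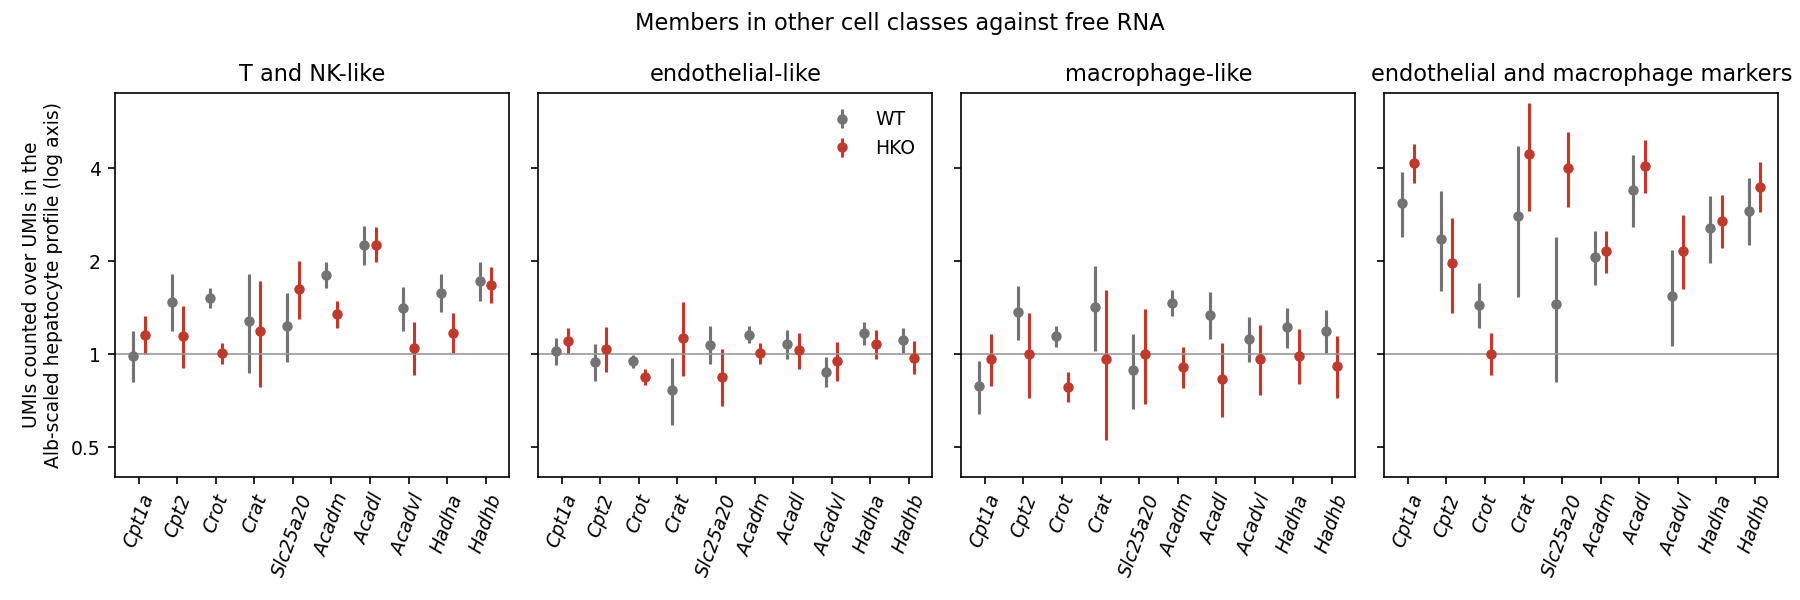
UMIs counted for each member divided by the UMIs in the Alb-scaled hepatocyte-like profile of the same library (log axis), in T and NK-like, endothelial-like and macrophage-like barcodes and in those with markers of both endothelial cells and macrophages, with 95% counting intervals. A value of 1 equals this profile, and the profile of free RNA depth gives other values; in T and NK-like barcodes Acadl lies at 2.25 in WT and 2.27 in HKO, endothelial-like values lie between 0.763 and 1.17, and Cpt1a lies at 3.09 and 4.16 in barcodes with both sets of markers.

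Other genes of the pathway, from lists by role, were described by the same HKO over WT ratios in hepatocyte-like barcodes. Of 15 further mitochondrial beta-oxidation enzymes, 7 were higher and 8 lower in HKO, and 1 and 2 of them by at least 1.2-fold, against 14.0% higher and 19.3% lower of all genes. Without cluster 14 the counts past 1.2-fold were 4 higher and 2 lower, against 17.6% and 22.1% of all genes. Etfa, part of the flavoprotein that takes electrons from the dehydrogenases, was at 0.757 (0.737 to 0.778), and Etfdh, which passes them to the respiratory chain, at 0.771 (0.734 to 0.809). Both were also low in cluster 7, at 0.677 and 0.687. Hsd17b10, a hydroxyacyl-CoA dehydrogenase, was at 1.39 (1.34 to 1.45) but at 1.10 in cluster 7 and 0.837 in cluster 10, and at 1.67 without cluster 14.

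Of 12 analysed genes of fatty acid activation and carnitine supply, 4 were higher and 8 lower, with 0 and 5 past 1.2-fold, against 14.0% and 19.3% of all genes. Without cluster 14 the counts past 1.2-fold were 2 and 5, against 17.6% and 22.1%. The acyl-CoA synthetases Acsl3 and Acsl5 were at 0.478 (0.420 to 0.542) and 0.594 (0.571 to 0.619). Slc27a2 and Slc27a5, which activate very-long-chain fatty acids and bile acids, were at 0.754 (0.741 to 0.767) and 0.692 (0.669 to 0.716), and Slc27a5 was at 0.916 in cluster 7 and 0.812 in cluster 10. Tmlhe, the first enzyme of carnitine synthesis, was at 0.687 (0.593 to 0.793) with 0.533 in cluster 7 and 1.02 in cluster 10. The highest was Dbi, the acyl-CoA binding protein, at 1.17 (1.16 to 1.18), which was 0.982 in cluster 7, 0.609 in cluster 10 and 1.35 without cluster 14.

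The 5 analysed ketogenesis genes were all below 1, with a median of -0.24 on the log2 scale that was -0.30 in cluster 7 and -0.44 in cluster 10, against -0.02, -0.031 and 0.04 for all genes. Slc16a1, a monocarboxylate transporter, was the 1 gene at least 1.2-fold lower, at 0.554 (0.512 to 0.598), against 19.3% of all genes.

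Of 13 analysed regulators, 6 were higher and 7 lower, with 2 and 3 past 1.2-fold, close to the 14.0% and 19.3% of all genes, and 1 and 4 without cluster 14. Ppara, the nuclear receptor that drives transcription of this pathway, was at 1.48 (1.44 to 1.51), at 1.31 in cluster 7, 2.03 in cluster 10 and 1.28 without cluster 14. The coactivator genes Ppargc1b and Ppargc1a were at 1.24 (1.13 to 1.35) and 1.16 (1.07 to 1.25), and with at least 5000 UMIs in both at 1.31 and 1.26, but without cluster 14 at 1.07 and 0.997. Acaca, a carboxylase whose product malonyl-CoA inhibits Cpt1a, was at 0.441 (0.419 to 0.463), and its mitochondrial paralog Acacb at 0.943 (0.808 to 1.10). Lpin1, a coactivator of Ppara, was at 0.461 (0.439 to 0.484), and Fgf21, a fasting hormone, at 0.498 (0.434 to 0.570). In cluster 7 these were 0.545 for Acaca, 0.470 for Lpin1 and 0.593 for Fgf21.

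Of 14 peroxisomal genes, 5 were higher and 9 lower, with 1 and 2 past 1.2-fold, below the 14.0% and 19.3% of all genes. Without cluster 14 the counts past 1.2-fold were 2 and 2, against 17.6% and 22.1%. The genes past it on the higher side were then Acaa1a, at 1.29, and Acot4, at 1.25. Ehhadh, the peroxisomal bifunctional enzyme, was at 0.350 (0.339 to 0.362), and at 0.340 in cluster 7 and 0.303 in cluster 10. Acox2, an oxidase of branched chains, was at 0.832 (0.799 to 0.866), and Abcd2, a transporter of very-long-chain fatty acids, at 1.21 (1.12 to 1.32), or 1.13 without cluster 14. Cpt1a and Ehhadh, both known targets of Ppara, thus stood on opposite sides of 1.

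Correlations between members across barcodes were weak. In barcodes thinned to 5000 UMIs the 45 pairs of members had a median Pearson's r of 0.0715 in WT (1836 barcodes, from -0.0781 to 0.261) and 0.0847 in HKO (1588 barcodes, from -0.101 to 0.364). The highest pair was Crot and Acadm in both libraries. The barcodes of a library share its preparation and depth, and no pattern is read from such sparse counts.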

How the data were processed

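Single-cell RNA-seq was done by the authors with 10x Genomics 3' chemistry on 1 WT and 1 HKO library. The deposited matrices hold unnormalised counts of UMIs for each gene in each barcode. They came from Cell Ranger 7.1.0 per the file headers and were aligned to mm10 per the submitters' processing notes, which also name R 3.0 and Seurat 3. By default this version also counts introns, and the counts are not scaled to gene length, so levels were not compared between genes. The study's supplemental methods were not available here, and barcodes shared by the libraries were not analysed here. Coordinates are from GENCODE M21.

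Barcodes with at least 500 UMIs, at least 300 genes and at most 50% mitochondrial UMIs were kept, 29620 in WT and 18247 in HKO. The automatic Scrublet threshold marked 0 doublets, so the top-scoring 0.8% per 1000 barcodes were left out (7019 and 2664). Counts scaled to 10000 were clustered without integration (2000 variable genes, 30 components, 15 neighbours, resolution 1, scanpy 1.11.5). A class was named from at least 3 markers detected in 10% of barcodes and 2-fold above the rest. Barcodes without markers of other cells were hepatocyte-like at 2 times or more the commonest depth. UMIs were summed per class and library and divided by the class total (CPM). Intervals are exact Poisson for CPM, conditional for ratios and Clopper-Pearson for shares (scipy 1.17.1). Genes with a mean of at least 10 CPM were analysed. All 10 members were named, and from each other list the genes past 1.2-fold, the highest and lowest, up to 6 genes, with Srebf2, Ppara, Ppargc1a and Acacb. The value of 1 gene under this rule is not reported here. Alternatives changed the depth minimum, thinning, weights, doublets, filters, scaling and zone score. The members and lists were chosen with earlier results of these data known.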

Additional observations from a re-analysis of the deposited data

Results flagged for a closer look

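Among classes with at least 50 barcodes of each library, some members lay on 1 side of 1 in hepatocyte-like barcodes and on the opposite side in another cell class, with intervals that excluded 1 in both. These differences between classes were not tested. In T and NK-like barcodes the HKO over WT ratio was 0.530 (0.476 to 0.591) for Crot, 0.603 (0.525 to 0.693) for Acadm, 0.777 (0.638 to 0.948) for Acadl, 0.567 (0.460 to 0.699) for Hadha and 0.718 (0.588 to 0.877) for Hadhb, against 1.04 to 1.14 in hepatocyte-like barcodes. In macrophage-like barcodes it was 0.732 (0.637 to 0.840) for Crot, 0.665 (0.554 to 0.797) for Acadm and 0.640 (0.457 to 0.885) for Acadl. In classes with fewer barcodes this was also seen, with Crot at 0.433 (0.330 to 0.567), Acadm at 0.516 (0.359 to 0.740) and Hadhb at 0.473 (0.292 to 0.763) in B and plasma barcodes (31 in WT, 156 in HKO) and Crot at 0.501 (0.375 to 0.664) in erythroid barcodes (40 and 84). The Alb share of UMIs, a measure of free hepatocyte RNA, was also lower in HKO, at 0.871% against 1.62% in T and NK-like and at 2.25% against 3.15% in macrophage-like barcodes. Its part in these ratios was not tested. Barcodes of free RNA depth gave 0.705 for Crot, 0.747 for Acadm and 0.773 for Acadl.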

How the results depend on the processing

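No paired analysis was possible because each genotype had 1 library. The Cpt1a ratio of 1.38 was above 1 under all 15 alternatives (1.22 to 1.59): it was 1.45 with at least 5000 UMIs in both libraries, 1.26 with every barcode thinned to 1000 UMIs, 1.22 with barcodes weighted equally, and, chosen after seeing the data, 1.42 in cluster 7, 1.59 in cluster 10 and 1.31 without cluster 14, which lay almost wholly in WT. The Crot ratio of 1.13 was 1.11 thinned, 1.10 with equal weights, 1.09 without cluster 14, and 1.15 with totals without mitochondrial genes, divided by the median ratio or at 10000 to 40000 UMIs. It was 1.01 in the middle mitochondrial range and below 1 with no depth minimum (0.912), in cluster 7 (0.987) and in cluster 10 (0.905). The median log2 ratio of the members (0.08) was 0.14 thinned and at 10000 to 40000 UMIs, but -0.18 with no depth minimum, -0.060 in the middle mitochondrial range, -0.032 in cluster 7 and -0.13 in cluster 10. Thinning gave 2 members at least 1.2-fold higher in place of 1, Cpt1a and Hadha. The 2 members at least 1.2-fold lower became 3 with no depth minimum and in cluster 10, 1 with equal weights, with doublets kept and in cluster 7, and 0 thinned, without cluster 14, without mitochondrial genes, divided by the median, at 10000 to 40000 UMIs and in the middle mitochondrial range. Acadvl went from 0.831 to 1.03 without cluster 14, the 1 reversal of a called ratio. The zonal median log2 ratio was 0.17 in WT with a score from Cyp2e1 and Cyp2f2 only and 0.026 in HKO divided by the median ratio. Causes were not tested. Depth limits Crat most, with 2334 and 1031 UMIs.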
